A study of Rattus norvegicus with 12 samples.

Results

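Interferon response genes are genes whose transcription rises in cells exposed to interferons. The 8 described here are the transcription factor genes Irf7, Irf1 and Stat2, the GTPase genes Mx1, Mx2 and Gbp2, and the immunoproteasome genes Psmb8 and Psmb9. They were found by gene name among the probes of the array, whatever their signal, and are 8 of 35608 genes named on it. Each was measured by 1 probe with 1 spot per array, and the accession of each of the 8 probes led to the same gene symbol in RefSeq. Their levels were measured in the dorsal striatum of male rats, in 4 groups of 3 rats with 1 single-colour Agilent array per rat. All rats, the controls included, carried a unilateral lesion made by injecting 9 µg of 6-OHDA into the substantia nigra, where the toxin destroys dopamine neurons. The 6-OHDA group had the lesion alone. In the HFS group the subthalamic nucleus on the side of the lesion was stimulated at high frequency for 5 days without a break (130 Hz, 80 µs, 60 µA). Rats of the DOPA group were injected with L-DOPA, the precursor of dopamine, at 25 mg/kg, together with benserazide at 12.5 mg/kg, in 2 injections per day for 19 days. The DOPA/HFS group received both. Surgery to implant an electrode is described only for the HFS and DOPA/HFS groups, so the implant and the stimulation cannot be told apart. No rat without the lesion was measured on these arrays, so the effect of the lesion itself on these genes was not measured, and the punched tissue of each rat was pooled over several sections. The age of the rats is not given in the sources used here.

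Interferons are secreted proteins that act through receptors on the surface of the cell. Type I interferons lead to a complex with Stat2 and Irf9 that binds the interferon-stimulated response element (ISRE) in the promoters of its target genes, and interferon-gamma acts through the gamma-activated site (GAS). Irf7 amplifies the production of type I interferons, and Irf1 is induced by interferon-gamma and in turn drives genes of antigen presentation. Mx proteins block the replication of viruses, guanylate-binding proteins such as Gbp2 act in the defence of the cell against microbes, and Psmb8 and Psmb9 replace standard catalytic subunits of the proteasome and change the peptides available for presentation by class I molecules. In the brain, microglia, endothelial cells and astrocytes as well as neurons can carry this response.

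The promoter sequences, 250 bases before to 50 bases after the start of the gene in the rat assembly GRCr8, are from RefSeq and were found for 7 of the 8 genes. The stretches with a match to either of 2 motifs through which interferons act are shown. The ISRE core was searched as GAAANNGAAA and its reverse complement TTTCNNTTTC, and was present in 3 of the 7 promoters (Irf7, Gbp2 and Psmb8) and in 3.92% of the 33469 promoters of the table. The GAS core was searched as TTCNNNGAA, which reads the same on both strands, and was present in 2 of the 7 (Irf1 and Psmb8) and in 8.87% of all promoters. In the sequences below, written 5′ to 3′ on the strand of the gene, capitals mark the match.
Irf7, ISRE beginning 69 bases before the start, chr1:205800073-205800132, minus strand: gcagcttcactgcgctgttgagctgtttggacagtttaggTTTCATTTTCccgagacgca
Gbp2, ISRE beginning 31 bases before the start, chr2:234005656-234005715, plus strand: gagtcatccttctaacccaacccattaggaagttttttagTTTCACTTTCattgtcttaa
Psmb8, ISRE beginning 4 bases before the start and running across it, chr20:4657016-4657075, minus strand: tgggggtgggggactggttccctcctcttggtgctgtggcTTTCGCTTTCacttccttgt
Psmb8, GAS beginning 245 bases before the start, chr20:4657258-4657281, minus strand: agctgTTCCCAGAAgatgcccctc
Irf1, GAS beginning 142 bases before the start, chr10:38417753-38417811, plus strand: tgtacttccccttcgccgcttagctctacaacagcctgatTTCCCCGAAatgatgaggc
In the 3 ISRE matches the element lies on the strand opposite to the gene, and they differ only in the bases that the motif leaves free. Neither core was found in the windows of Stat2, Mx1 and Psmb9, and a match is a string of letters and not evidence of binding in this tissue.

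Signals are given as log2 intensity after quantile normalization between arrays, and groups are listed in the order of replicates 1, 2 and 3. Spots well above background made up 50.5% to 63.2% of each array. Outlier spots, as set by the scanner software, were not used, and numbered 4175 on replicate 3 of DOPA/HFS but 2 to 25 on the other 11 arrays. All 10 markers of striatal neurons passed the detection filter and their summed signal overlapped between the groups. Markers of the choroid plexus, which lies within the ventricles beside the striatum, were uneven. Of the 8, 6 passed the filter, and the 5 of them with a value on every array summed to 256 to 386 in 6-OHDA, 4249 to 88099 in HFS, 222 to 16267 in DOPA and 269 to 881 in DOPA/HFS. On DOPA/HFS replicate 1 the signal of Trh, at 10.61 to 10.77 in DOPA, was 7.82, near the 8.00 to 8.07 of the 6-OHDA arrays, while the other DOPA/HFS arrays had 10.50 and 11.03. Each slide held 1 array of every group, at a position that was the same for a group on every slide, so position and treatment cannot be told apart. The p-values of the fit described below rest on a single estimate per gene of the spread between rats. It is shared by the 4 groups of 3 rats and drawn towards the spread of the other genes. The exact permutation tests use only the arrays compared.

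Of the 8 genes, 7 passed the filter of a signal well above background on at least 5 of the 12 arrays. None of the 7 was called in any of 6 comparisons in a limma fit across 20398 genes, where a call needed an adjusted p (Benjamini-Hochberg) under 0.1 and, except for the interaction, a fold over 1.2 or under 0.8. Over all genes the same rule called 0% in HFS against 6-OHDA, 0.0049% in DOPA, 0% in DOPA/HFS, 0.0049% for the main effect of L-DOPA (6 arrays against 6), 0% for the main effect of stimulation and 0% for the interaction. Unadjusted p-values were under 0.05 for 1 of the 7 genes in DOPA (Mx2) and for 1 in the interaction (Mx2), and for none in HFS, DOPA/HFS or either main effect. The share of all genes under that limit was 2.34% in HFS, 2.58% in DOPA, 2.75% in DOPA/HFS, 2.74% for L-DOPA, 4.36% for stimulation and 1.98% for the interaction. Counted by arrays, 1 of the 7 genes in DOPA had all 3 treated arrays below all 3 of 6-OHDA (Irf7) and none had all above, against 3.11% of all genes below and 3.16% above. In HFS none of the 7 stood apart, against 2.34% of all genes below and 2.8% above, and in DOPA/HFS none of the 6 with a value on every array did, against 2.44% below and 1.74% above.

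**Figure D1:**
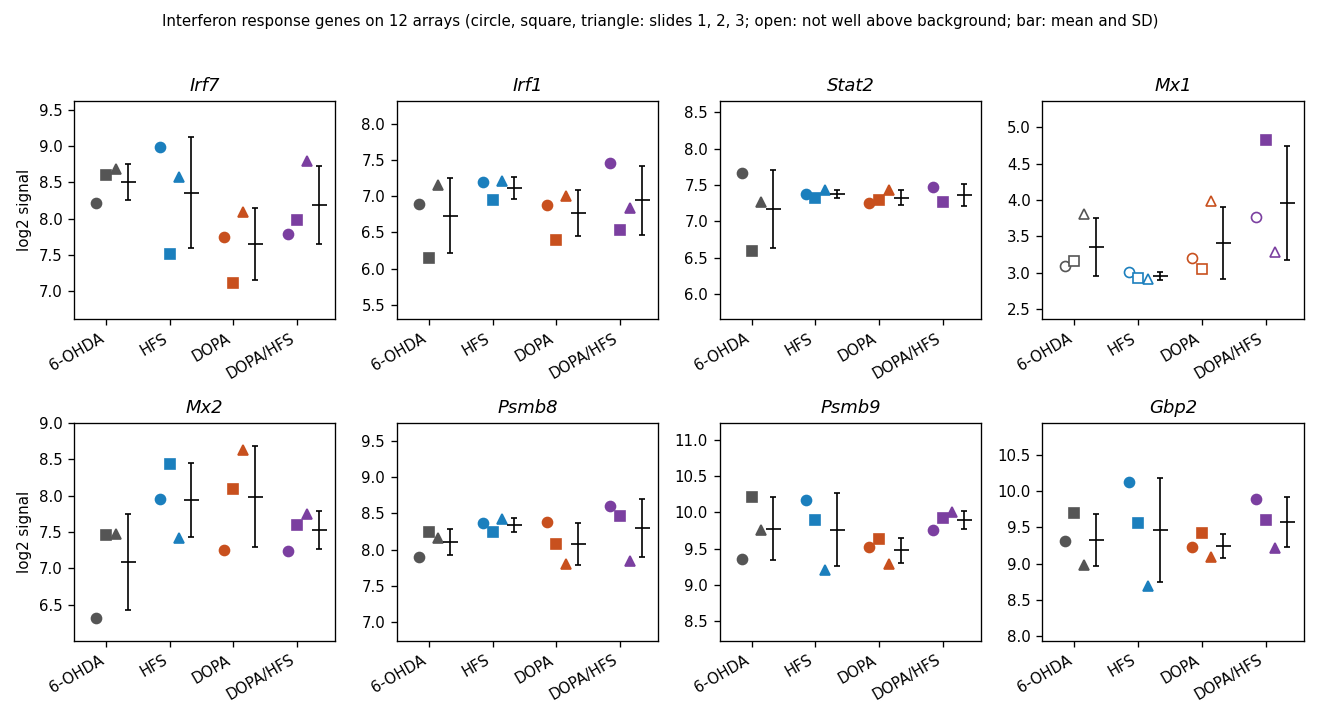
Log2 signal (y axis, each panel spanning 3 log2 units) of the 8 interferon response genes on the 12 arrays, by group (x axis), with the slide as the shape of the point, the group mean and SD as a black bar, and open points where the spot was not well above background. The 3 DOPA arrays of Irf7 lie below its 3 arrays of 6-OHDA, and Mx1 has a single filled point.

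Irf7 was the only 1 of the 7 genes with the arrays of a treated group apart from those of 6-OHDA, and it was lower in DOPA on each array. Its log2 signal was 8.22, 8.61 and 8.68 in 6-OHDA, 8.99, 7.51 and 8.58 in HFS, 7.75, 7.11 and 8.10 in DOPA, and 7.79, 7.98 and 8.80 in DOPA/HFS. The highest DOPA array lay below the lowest 6-OHDA array, whereas the HFS arrays spread from below to above all of the 6-OHDA arrays. By mean, the order was 6-OHDA (8.50 ± 0.25, SD, n = 3), HFS (8.36 ± 0.76), DOPA/HFS (8.19 ± 0.53) and DOPA (7.65 ± 0.50), and the arrays of each neighbouring pair in this order overlapped. The difference between DOPA and 6-OHDA was -0.85 on the log2 scale (SE 0.39, 95% interval -1.71 to 0.02), a fold of 0.555, with a limma adjusted p of 1. An exact two-sided permutation test gave p = 0.1, the smallest that 3 arrays against 3 allow. On the 3 slides taken separately, the DOPA array differed from the 6-OHDA array by -0.47, -1.49 and -0.58. Without DOPA replicate 2, the lowest array, the difference became -0.58 (SE 0.42).

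With stimulation added to L-DOPA, the difference of Irf7 from 6-OHDA was -0.31 (SE 0.39), with differences of -0.43, -0.62 and 0.12 on the 3 slides. It was -0.11 (SE 0.44) without DOPA/HFS replicate 1, which lacked the rise of Trh, and -0.61 (SE 0.41) without replicate 3. HFS alone gave -0.14 (SE 0.39), and its 3 slides did not share a direction (0.77, -1.09 and -0.10). Across all arrays, the 6 from rats given L-DOPA averaged 0.51 log2 units below the 6 others, a difference of -0.51 (SE 0.28, exact two-sided permutation p = 0.126). The interaction was 0.68 (SE 0.55, limma adjusted p = 1), so neither an L-DOPA effect on Irf7 nor a change of it with stimulation was shown.

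Irf1, with a GAS core in its promoter, differed little. Its log2 signal was 6.89, 6.15 and 7.15 in 6-OHDA, 7.20, 6.94 and 7.21 in HFS, 6.88, 6.40 and 7.002 in DOPA, and 7.46, 6.54 and 6.83 in DOPA/HFS. Replicate 2 of 6-OHDA was the lowest of the 12 and every treated group overlapped with 6-OHDA. The differences from 6-OHDA were 0.38 for HFS, 0.03 for DOPA and 0.21 for DOPA/HFS (SE 0.29 each), and in HFS all 3 slides were above 0, from 0.06 to 0.79. Without 6-OHDA replicate 2 the difference in HFS was 0.09 (SE 0.27).

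Stat2, which acts in the complex that binds the ISRE, had 7.66, 6.60 and 7.26 in 6-OHDA, 7.38, 7.33 and 7.43 in HFS, 7.25, 7.29 and 7.44 in DOPA, and 7.47 and 7.26 on DOPA/HFS replicates 1 and 2. Its spot on DOPA/HFS replicate 3 was among those marked as outliers, and the fit used 2 arrays there. The 6-OHDA arrays spanned 1.06 log2 units and held both the highest and the lowest of the 11 values, so all treated arrays lay inside their range. The differences were 0.21 in HFS (SE 0.23), 0.15 in DOPA (SE 0.23) and 0.19 in DOPA/HFS (SE 0.26).

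The 2 Mx genes differed in detection. Mx1 was well above background on 1 of the 12 arrays, DOPA/HFS replicate 2, with a log2 signal of 4.83. On the other 11 arrays its spot read 2.92 to 3.98, below the 4.03 to 5.71 at which the dimmest spots well above background lay on each array, so Mx1 did not pass the filter and no difference is given for it.

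Mx2 was well above background on all 12 arrays. Its log2 signal was 6.32, 7.46 and 7.47 in 6-OHDA, 7.95, 8.44 and 7.42 in HFS, 7.25, 8.08 and 8.63 in DOPA, and 7.24, 7.60 and 7.75 in DOPA/HFS. All 3 treated groups overlapped with 6-OHDA, whose replicate 1 was the lowest of the 12 arrays. By mean, the order was DOPA (7.99 ± 0.70, SD, n = 3), HFS (7.94 ± 0.51), DOPA/HFS (7.53 ± 0.26) and 6-OHDA (7.08 ± 0.66), with every neighbouring pair overlapping. Mx2 in DOPA was above 6-OHDA by 0.90 (SE 0.40, 95% interval 0.01 to 1.79), a fold of 1.87, with a limma adjusted p of 1 and an exact two-sided permutation p of 0.3. The slides gave 0.93, 0.62 and 1.16.

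In HFS the difference of Mx2 was 0.85 (SE 0.40), with 1.63, 0.98 and -0.05 on the slides, and in DOPA/HFS it was 0.44 (SE 0.40), with 0.92, 0.14 and 0.28. Both treatments together lay below the sum of the separate differences, and the interaction was -1.31 (SE 0.57, limma adjusted p = 1). These values lean on 6-OHDA replicate 1. Without it the difference became 0.52 in DOPA, 0.47 in HFS and 0.06 in DOPA/HFS (SE 0.39 each), and the interaction -0.93 (SE 0.52). Without DOPA replicate 3 the difference in DOPA was 0.58 (SE 0.42). Irf7 and Mx2 had differences of opposite sign in DOPA, and over the 12 arrays their signals had a Pearson r of -0.19.

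**Figure D2:**
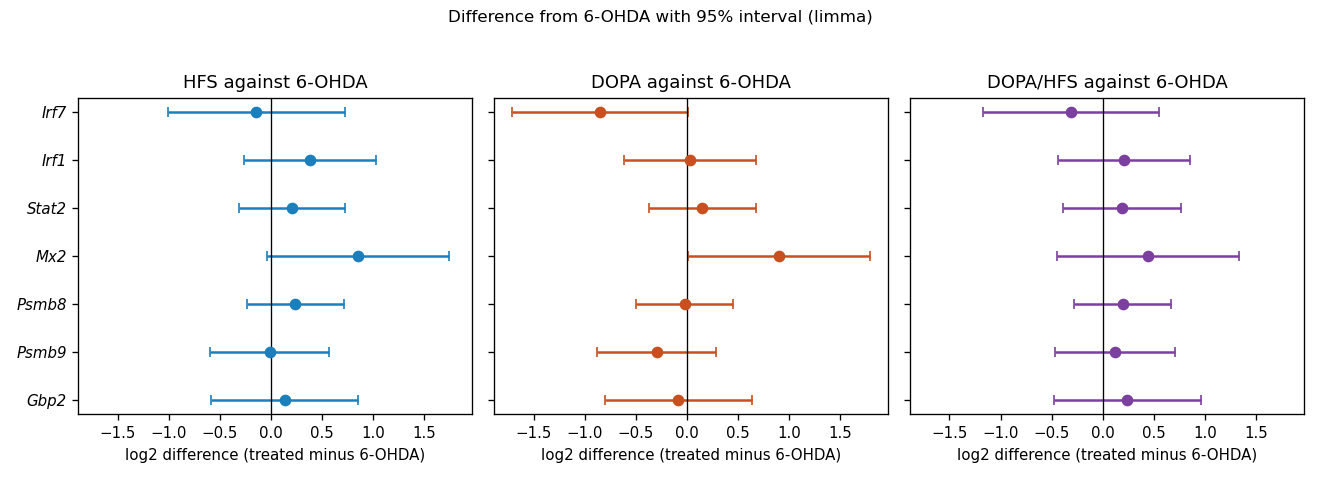
Log2 difference from 6-OHDA (x axis) with its 95% interval from the limma fit for the 7 interferon response genes tested (y axis), in HFS, DOPA and DOPA/HFS. In DOPA, Irf7 (-1.71 to 0.02, which includes 0) and Mx2 (0.01 to 1.79) are centred on opposite sides of 0. Mx2 in HFS is centred at 0.85 (-0.04 to 1.74), and all other points are nearer to 0.

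Psmb8, whose promoter window holds both cores, had the smallest spread of the 7. Its log2 signal was 7.90, 8.25 and 8.16 in 6-OHDA, 8.37, 8.24 and 8.42 in HFS, 8.38, 8.08 and 7.80 in DOPA, and 8.60, 8.46 and 7.84 in DOPA/HFS. HFS and 6-OHDA overlapped by 1 array each, and the DOPA and DOPA/HFS arrays lay on both sides of 6-OHDA. The differences were 0.24 for HFS, -0.02 for DOPA and 0.19 for DOPA/HFS (SE 0.22 each).

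Psmb9, the other inducible subunit, had 9.35, 10.22 and 9.75 in 6-OHDA, 10.18, 9.90 and 9.21 in HFS, 9.52, 9.63 and 9.29 in DOPA, and 9.75, 9.93 and 10.00 in DOPA/HFS. Its differences from 6-OHDA were -0.01 for HFS, -0.29 for DOPA and 0.12 for DOPA/HFS (SE 0.27 each), with overlapping arrays throughout. In DOPA the difference was -0.07 (SE 0.26) without 6-OHDA replicate 2 and -0.50 (SE 0.27) without 6-OHDA replicate 1. All 3 DOPA/HFS arrays were above all 3 DOPA arrays, by 0.41 on average (exact two-sided permutation p = 0.1, the smallest possible). It was the only 1 of 21 comparisons between treated groups (3 pairs of groups, 7 genes) without overlap, and its p was not adjusted. The share of all genes without overlap was not computed for these pairs, so no conclusion is drawn from the count. With outlier spots kept before normalization, DOPA/HFS replicate 3 read 9.58, below the 9.67 of DOPA replicate 2, and the groups overlapped.

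Gbp2, the guanylate-binding protein with an ISRE core close to its start, had 9.31, 9.70 and 8.98 in 6-OHDA, 10.13, 9.57 and 8.70 in HFS, 9.22, 9.42 and 9.09 in DOPA, and 9.89, 9.61 and 9.21 in DOPA/HFS. The HFS arrays reached both above and below every other array, a range of 1.43 log2 units. The differences were 0.13 for HFS, -0.08 for DOPA and 0.24 for DOPA/HFS (SE 0.33 each).

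As a group, the 7 genes had a median log2 difference of 0.21 in HFS, against 0.01 over all genes tested, of -0.02 in DOPA against -0.01, and of 0.19 in DOPA/HFS against -0.01. In the comparison of the 6 stimulated with the 6 unstimulated arrays all 7 genes were above 0 (Stat2 fell to -0.02 without 6-OHDA replicate 2), with a median of 0.20 against 0.00 over all genes, and limma adjusted p-values from 0.911 to 0.935. The largest of these 7 differences was 0.28 for Irf1 (SE 0.21), and that of Psmb8 was 0.23 (SE 0.15). The stimulated arrays also had more spots well above background, 60.3% to 63.2% in HFS and 60.0% to 62.8% in DOPA/HFS, than the 6-OHDA (53.8% to 58.9%) and DOPA arrays (50.5% to 58.0%), without overlap. The choroid plexus markers were higher in the HFS arrays, as given above. The part of either in these values was not tested, and the implanted electrode cannot be told apart from the stimulation.

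The spread between rats of a group was larger than usual for some of the genes. The SD within groups was 0.56 for Mx2, larger than in 87.8% of the genes tested, 0.54 for Irf7 (86.7%) and 0.45 for Gbp2 (79.3%). It was 0.39 for Irf1, 0.35 for Psmb9, 0.30 for Stat2 and 0.27 for Psmb8, and the median over all genes was 0.27. The genes did not share their pattern across the arrays. Of 21 pairs of the 7 genes, 9 had a positive Pearson r, the median was -0.07 and the range -0.62 to 0.72. Psmb9 and Gbp2 had the highest (r = 0.72, Spearman rho = 0.63, and r = 0.59 without the 2 arrays farthest from the median of Psmb9). Irf1 and Stat2 had r = 0.69 over 11 arrays, which became 0.28 without the 2 farthest arrays.

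The rest of the pathway was followed through 8 lists with 95 other genes, from ligands and receptors to antiviral effectors. Of these, 71 were found by name on the array and 53 passed the filter. None of the 53 was called in HFS, DOPA or DOPA/HFS. Unadjusted p-values were under 0.05 for 1 gene in HFS (higher), 3 in DOPA (all lower) and 0 in DOPA/HFS. In DOPA, 6 of the 53 (11.3%) had all 3 arrays below all 3 of 6-OHDA and 0 had all above, beside the 3.11% and 3.16% of all genes given earlier. In HFS 1 of 53 was above and 0 below, and in DOPA/HFS 2 of the 50 with a value on every array were above and 0 below. All of these genes were read on the same arrays, so such counts carry no test. The median log2 difference of the 53 was 0.05 for HFS, -0.11 for DOPA and -0.01 for DOPA/HFS. None of the ligands listed, Ifnb1, Ifng and Ifna1 (found under the symbol Ifna5), passed the filter (all named after their values were seen).

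**Figure D3:**
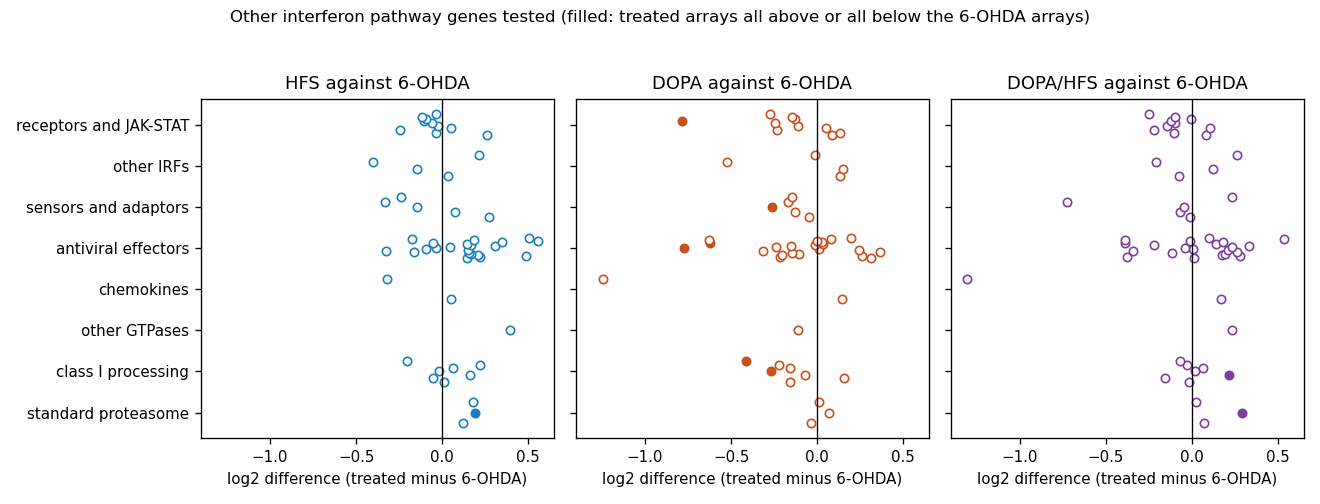
Log2 difference from 6-OHDA (x axis) of the 53 other interferon pathway genes tested, 1 point per gene, by list (y axis), in HFS, DOPA and DOPA/HFS, with filled points where the 3 treated arrays lay all above or all below the 3 arrays of 6-OHDA. The 6 filled points in DOPA lie below 0, the 1 in HFS and the 2 in DOPA/HFS above 0.

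The 6 genes lower on every DOPA array belonged to several steps of the pathway. Socs1, which inhibits signalling from the receptors, was the only 1 of the 10 tested genes of the receptor and JAK-STAT list to stand apart, with 5.40, 5.77 and 5.16 in 6-OHDA and 4.61, 5.14 and 4.22 in DOPA. Its difference was -0.79 (SE 0.23), and its signal was low, being well above background on 7 of the 12 arrays. On DOPA replicates 1 and 3 it lay below the dimmest spots well above background there (4.73 and 5.71). The same held for 6-OHDA replicate 3 (5.30). This difference is therefore partly between undetected spots, although Socs1 remains in the counts given above. Myd88, an adaptor of the toll-like receptors and the only 1 of 5 sensors and adaptors to stand apart, differed by -0.26 (SE 0.25). Its highest DOPA array read 6.91 and its lowest 6-OHDA array 6.93.

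Among the 21 antiviral effectors tested, 2 stood apart in DOPA. Ifitm3, which hinders the entry of viruses into the cell, had 7.66, 8.50 and 7.95 in 6-OHDA and 7.62, 7.07 and 7.10 in DOPA, a difference of -0.78 (SE 0.26). In DOPA/HFS it had 8.22, 7.64 and 8.12, a difference of -0.04 (SE 0.26). Oas1a, a sensor of double-stranded RNA, had 8.79, 9.46 and 9.09 in 6-OHDA and 8.34, 8.59 and 8.52 in DOPA, a difference of -0.63 (SE 0.30). In HFS the 21 effectors had a median of 0.16, with 15 of them above 0, and in DOPA a median of -0.01, with 9 above 0. The 1 gene with an unadjusted p under 0.05 in HFS was Eif2ak2, a kinase that halts translation on sensing double-stranded RNA, with a difference of 0.48 (SE 0.21) and overlapping arrays. It was named after its values were seen.

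Of the 7 tested partners in class I antigen processing, Tapbp, which links class I molecules to the peptide transporter, differed by -0.41 (SE 0.16) in DOPA, and Psme2, a subunit of the proteasome activator, by -0.27 (SE 0.13). Psme1, the other subunit of that activator, differed by -0.07 (SE 0.16) in DOPA with overlapping arrays and was above 6-OHDA on every DOPA/HFS array, by 0.21 (SE 0.16). The list had a median of -0.16 in DOPA. Of the 3 standard proteasome subunits that Psmb8, Psmb9 and their partner replace, Psmb6, the counterpart of Psmb9, was above 6-OHDA on every array of HFS, by 0.19 on average, and of DOPA/HFS, by 0.29 (SE 0.16 each). The separation was narrow: its lowest HFS and DOPA/HFS arrays read 13.214 and 13.207, against 13.204 on 6-OHDA replicate 1. Replicate 2 of 6-OHDA read 12.80. The limma adjusted p of each gene in these lists was at least 0.998 in each of the 3 comparisons. No gene of the lists of other interferon regulatory factors (4 tested), chemokines (2 tested) and other interferon-induced GTPases (1 tested) stood apart from 6-OHDA.

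The genes most like Irf7 in their signal over the 12 arrays, of 18349 with a value on each, were LOC362068 (Pearson r = 0.92, Spearman rho = 0.92), Usp18 (r = 0.89, rho = 0.85) and the transcripts listed as AW921380 (r = 0.88), BF567649 (r = 0.87) and TC541394 (r = 0.86). Without DOPA replicate 2 and HFS replicate 1, the 2 arrays farthest from the median of Irf7, r was 0.89 for LOC362068 and 0.85 for Usp18. Usp18, an interferon-induced protease that removes Isg15 from proteins, was in the receptor and JAK-STAT list. It had 6.14, 6.37 and 6.63 in 6-OHDA, 6.68, 5.64 and 6.70 in HFS, 6.34, 5.69 and 6.28 in DOPA, and 5.84, 5.90 and 6.64 in DOPA/HFS. Like Irf7, it was lowest on HFS replicate 2 and DOPA replicate 2, but its DOPA arrays overlapped with 6-OHDA (difference -0.28, SE 0.32).

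Over the 50 pathway genes with a value on every array, the Pearson r with Irf7 had a median of 0.13, against -0.01 over all genes. It was over 0.5, a limit chosen after the values were seen, for 10 of the 50 (20%) and for 4.19% of all genes. Without the 2 farthest arrays it was over that limit for 4 of the 50 (8%), all among the 10, and for 2.19% of all genes. Oas1a (r = 0.85, and 0.91 without the 2 arrays) and Psme2 (r = 0.82, and 0.62) followed Usp18, while Psme1 went from 0.55 to -0.02 and Ifitm3 from 0.55 to 0.22. The arrays are shared by all of these genes, so the counts describe these 12 rats and carry no test. Within the HFS group, Irf7, Usp18 and Oas1a were each low on replicate 2 and high on replicates 1 and 3. The summed choroid plexus markers were also lowest there on replicate 2 (4249, against 88099 and 44183 on replicates 1 and 3). In 6-OHDA that sum was 256 to 386, with Irf7 at 8.22 to 8.68. The part of the choroid plexus signal in these values was not tested.

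**Figure D4:**
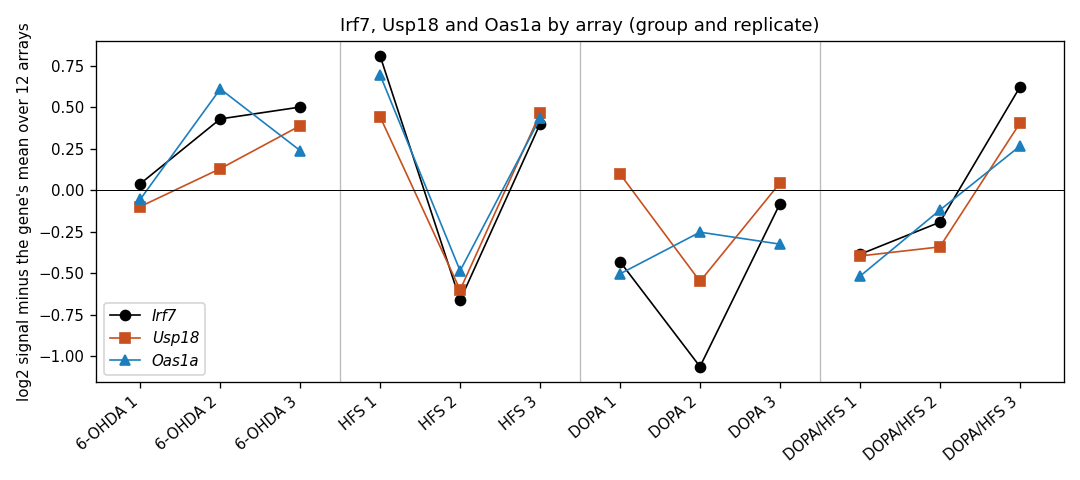
Log2 signal of Irf7, Usp18 and Oas1a on each of the 12 arrays (x axis, group and replicate), each as its difference from the mean of that gene over the 12 arrays (y axis); lines join arrays of a group to guide the eye. All 3 genes are low on HFS replicate 2 and high on HFS replicates 1 and 3, and Irf7 and Oas1a are below their means on all DOPA arrays.

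Cell types known for the interferon response were compared through their markers, since in a piece of tissue fewer cells of a type and less RNA per cell cannot be told apart. All 10 microglia and macrophage markers passed the filter, and the 9 with a value on every array summed to 28901 to 35031 in 6-OHDA, 27662 to 33252 in HFS, 26892 to 36365 in DOPA and 30988 to 34656 in DOPA/HFS, with all groups overlapping. Of 10 lymphocyte markers, 2 passed the filter, and their sum was 173 to 590 in 6-OHDA and 174 to 522 in DOPA. Astrocyte markers (6 of 7 tested) summed to 53505 to 61976 in 6-OHDA and 52250 to 64446 in DOPA. All 7 endothelial markers passed, and in DOPA 5 of them were above 6-OHDA by mean, with a median log2 difference of 0.21. The 4 with a value on every array summed to 7033 to 7249 in 6-OHDA and 8016 to 9588 in DOPA, without overlap. Their sums were 5766 to 8270 in HFS and 6642 to 7434 in DOPA/HFS. The mean log2 signal of these 4 overlapped between 6-OHDA (6.87 to 7.76) and DOPA (7.55 to 7.77). Cldn5, a protein of the tight junctions, was the brightest of them. Of the 7 markers, only Cldn5 had all DOPA arrays above all 6-OHDA arrays, by 0.27. Kdr (-0.10) and Vwf (-0.09) were lower by mean with overlapping arrays. The part of these markers in the values of Irf7 and of the other genes was not tested.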

How the data were processed

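RNA from the striatum of 12 rats was labelled and hybridised to 12 single-colour Agilent arrays. In the deposited scanner files every spot carries a linear intensity, from which Agilent Feature Extraction 9.1 (per the labels) had subtracted the local background and spatial trends. The deposited table of log2 values, quantile normalized by the authors, was used as an alternative. Here the intensities of non-control spots, without outlier spots, were put on the log2 scale, normalized by quantiles across the 12 arrays and averaged per probe. A probe was kept if it was well above background on a share of 0.4 or more of the arrays, and each gene took its brightest probe. Of 41012 probes, 10735 were named through RefSeq accessions, and the others kept the names in the files. Probe sequences were not used, so cross-hybridisation within the Mx, Gbp and Ifitm families was not checked.

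Groups and replicate numbers were taken from the labels. The methods' SAM was replaced by limma 3.58.1 (lmFit and eBayes, R 4.3.3) on the 4 groups, with Benjamini-Hochberg adjustment over all 20398 genes, and fits were tested on simulated data. Single genes were compared by exact two-sided permutation tests. The number of arrays limits the precision. The genes, lists and tests were chosen with earlier results of these data known. Named genes were all 8 interferon response genes, from each list at most 5 genes, called or with arrays that did not overlap with 6-OHDA, the 5 genes most like Irf7, and markers that define the tissue or stand apart on single arrays. The alternatives were scaling to the 75th percentile, the deposited log2 table, normexp with an offset of 50, other filters, the mean of all probes, the replicate block, fits of only the arrays compared, outlier spots kept and each array left out.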

Additional observations from a re-analysis of the deposited data

How the results depend on the processing

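None of the 7 genes tested was called under the 21 alternatives for the 3 comparisons with 6-OHDA. Nor was any under the 20 for the main effects and interaction, made without fits of only the arrays compared. Mx1 entered the fit without the filter and was not called there. Of 441 recomputed differences, 25 had the other sign, in 12 of the 21 differences, all of which were at most 0.21 in size. The signs of Irf7 in DOPA (-1.07 to -0.58) and DOPA/HFS (-0.61 to -0.11) and of Mx2 in HFS (0.47 to 1.11), DOPA (0.52 to 1.27) and DOPA/HFS (0.06 to 0.64) did not change. Gbp2 in DOPA/HFS ranged from 0.06 to 0.43, Irf1 in HFS from 0.09 to 0.59 and Psmb8 in HFS from 0.14 to 0.31. In DOPA, Psmb8 became 0.0188 with normexp and 0.0128 in the deposited log2 table. In DOPA/HFS, the deposited table gave -0.0114 for Psmb8 and -0.000483 for Psmb9, and with outlier spots kept Irf1 became -0.0139, Psmb8 -0.0191 and Psmb9 -0.0315, while the median of all genes moved to -0.12 in that table and to -0.14 with those spots. With each array left out in turn, the lowest and highest differences were -0.45 and 0.28 for Irf7, -0.0809 and 0.45 for Stat2, -0.22 and 0.26 for Psmb9 and -0.20 and 0.52 for Gbp2 in HFS, -0.26 and 0.24 for Irf1, -0.13 and 0.40 for Stat2, -0.17 and 0.12 for Psmb8 and -0.26 and 0.10 for Gbp2 in DOPA, and -0.0798 and 0.42 for Irf1, -0.10 and 0.43 for Stat2 and -0.0911 and 0.34 for Psmb9 in DOPA/HFS. Leaving out 6-OHDA replicate 2 changed the sign most often. The causes were not tested.

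The replicate number marks the slide. Deviations from the group means correlated by -0.29 to 0.48 between arrays of the same slide (median 0.11, 18 pairs) and by -0.45 to 0.54 between slides (median -0.07, 36 pairs). The numbers were not taken to pair the rats. The slide was left out of the main fit and entered as a block in an alternative. With the replicate block, the difference in DOPA was -0.85 for Irf7 (SE 0.32, main fit 0.39) and 0.90 for Mx2 (SE 0.33, main fit 0.40). Both limma adjusted p were 1 and no call changed.

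The number of pathway genes lower on every DOPA array, which carries no test, was recomputed after the data had been seen. It was 5 of 53 with scaling to the 75th percentile, normexp and the deposited table (3.09% to 3.31% of all genes), 6 with the mean of all probes and 8 of 71 without the filter. Socs1 no longer stood apart with the scaling, and Myd88 no longer did with normexp or in the deposited table. With 1 array of either group left out, when fewer arrays make separation easier, it was 7 to 11, against 5.36% to 10.3% of all genes, with 0 to 3 pathway genes higher on every DOPA array. Without DOPA replicate 3, which carried choroid plexus signal, it was 10 (18.9%, against 5.36% of all genes). Without 6-OHDA replicates 1, 2 or 3 in turn it was 10, 7 (13.2%, with 3 higher) and 11, against 7.94%, 9.40% and 10.3%. Irf7 was below 6-OHDA in each setting, but several could not have changed this. Leaving out an array cannot undo a separation seen with all arrays, and neither the filter nor the mean of all probes alters Irf7. Depth on an array is signal over background, and dim genes such as Mx1 and Socs1, well above it on 1 and 7 arrays, are limited by it.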
